A study of Mus musculus with 96 samples.

Results

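The comparison described here is the start of the nightly meal in the livers of clock knockout mice that were fed only at night. Its 8 libraries, of 96 in the series, were taken by their labels: the night-fed (restricted feeding, RF) Bmal1 KO and Cry1/2 double KO (Cry KO below) libraries at zeitgeber time (ZT, hours after lights on) 12, at the end of the daytime fast, and at ZT16, 4 h later. Each time held 4 libraries, 1 from each of 4 numbered replicate series: series 2 and series 4 of Bmal1 KO and series 3 and series 5 of Cry KO. All mice were 12 to 16 weeks old and the tissue was whole liver. The Bmal1 KO mice lack the clock activator BMAL1 (gene Arntl), and the Cry KO mice lack both CRY repressors (genes Cry1 and Cry2). The labels name the knockouts by gene alone, with no Cre driver or target tissue, and the sources used here do not give the hours of food access. The whole series crossed 2 lines (Bmal1 and Cry) with 2 genotypes (wild type, WT, and KO) and 2 feeding regimens (RF, and ad libitum, AL) at 6 times of day, with 2 libraries per group and time. Where the response is set beside other groups, these are the night-fed WT mice of both lines and the KO mice of both lines fed ad libitum, each with 4 libraries at ZT12 and 4 at ZT16.

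A meal turns the liver from supplying fuel to storing it. During a fast, glucagon raises cAMP and activates CREB, glucocorticoids act through their receptor, and the factor FOXO1 stays in the nucleus, so that genes of glucose production, of fat oxidation and of autophagy are transcribed. After feeding, insulin signals through AKT, which phosphorylates FOXO1 and sends it out of the nucleus, and insulin raises SREBP1c and with it the genes of fat synthesis. In wild type mice the circadian clock runs on the same daily schedule as the meals, and many of these genes are targets of both. In the KO mice the core loop of the clock is broken, so the comparison asks which transcripts still changed when the meal began.

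Values per library are given below in a fixed order: Bmal1 KO series 2, Bmal1 KO series 4, Cry KO series 3 and Cry KO series 5. Levels are read counts scaled to the normalised library size (CPM), and changes are log2 fold changes of ZT16 over ZT12 with their standard error (SE). They come from a single edgeR quasi-likelihood fit of all 96 libraries with each replicate series as a block, and a gene was called when its Benjamini-Hochberg (BH) adjusted p over the 15772 genes tested was under 0.05. No label says which animal a library came from, so these p-values measure only the spread between libraries, which may be technical. Total counts were 27423625, 29920225, 8037894 and 4883930 at ZT12 and 24709432, 22338305, 24228680 and 31826439 at ZT16. Both Cry KO libraries at ZT12 were therefore shallow, and in this line depth moves with time. The sum of 8 hepatocyte markers lay between 58918 and 136275 CPM at ZT12 and between 48701 and 129374 CPM at ZT16, so the livers held abundant hepatocyte RNA. In Cry KO series 5 the sum of 10 Kupffer cell markers was 532 CPM at ZT12 and 175 CPM at ZT16, and that of 8 exocrine pancreas markers was 103 and 31.4 CPM, with the protease gene Ctrb1 at 21.5 and 2.87 CPM. In the other 3 series the Kupffer sums ran from 170 to 376 CPM and the pancreas sums from 12.4 to 38.0 CPM, and Ctrb1 did not exceed 0.116 CPM. Of the 8 pancreas markers 5 or 6 were at 0 in each of those libraries, and the adipocyte markers summed to at most 0.88 CPM in all 8 libraries. The part of these cell types in the results was not tested. In whole tissue, fewer cells of a type and less RNA per cell cannot be told apart. None of the 10 lists of markers of liver and non-liver cells had a member called. Arntl itself was counted at 15.7, 17.5, 10.7 and 9.72 CPM at ZT12 and at 13.9, 21.2, 13.5 and 12.6 CPM at ZT16. Cry1 stood at 89.6, 112, 11.6 and 5.88 CPM and then 69.7, 59.1, 8.23 and 9.59 CPM, and Cry2 at 58.8, 63.0, 25.8 and 13.1 CPM and then 54.0, 46.5, 19.5 and 18.2 CPM. Counts over a whole gene do not check a deletion.

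Between ZT12 and ZT16, 226 of 15772 genes differed in the night-fed knockouts, which is 1.43% of the genes tested. The interval also spans the onset of the night, and within these 8 libraries the meal and the time of day cannot be told apart. Of these 148 (0.938%) were lower and 78 (0.495%) higher at ZT16, and 30 and 21 of them by at least 2-fold. The shares of 0.938% and 0.495% are the background for the calls in each gene list below. In 175 of the 226 genes all 4 series moved the same way. The genes were called from the same 4 series. Agreement in sign, separate levels and medians far from 0 therefore follow in part from the call. The levels of 36 genes called lower and of 20 called higher did not overlap between the times; over all genes tested, 380 (2.41%) did not overlap. The genes called lower had a median log2 change of −0.66, and the genes called higher had a median of 0.70, against 0.01 over all genes. The count leans on the spread estimated over the whole series and on single series: it was 0 when the 8 libraries (1076 genes at an unadjusted p under 0.05) or the 24 night-fed KO libraries (1858) were fitted alone, 0 without Bmal1 KO series 4, 3 without Cry KO series 3, 1273 without Bmal1 KO series 2 and 847 without Cry KO series 5. It was 61 without the series as blocks, 613 with DESeq2 and 272 without the libraries of low depth or with very high Saa1, Isg15 or Ctrb1, 1 of which is Cry KO series 5 at ZT12, so that 3 series are left for this contrast. All 226 genes kept their sign in every one of these fits that tested them. The fits reuse all or most of the libraries that called the genes, so the kept sign follows in part from the call.

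The 4 series differed widely in how much they changed. In Bmal1 KO series 2, 58 of the 9305 genes with a mean of at least 5 CPM in its pair of libraries differed at least 2-fold between ZT12 and ZT16, against 857 of 9328 in series 4 of the same line. The counts were 586 of 9424 in Cry KO series 3 and 237 of 9206 in Cry KO series 5. The genes called lower had median log2 changes of −0.20, −1.04, −0.89 and −0.41 in the 4 series, and those called higher had 0.26, 0.85, 0.78 and 0.63. The steepest fall lay in Bmal1 KO series 4 for 96 of the 148 genes called lower, and the shallowest in Bmal1 KO series 2 for 100. Across the 9576 genes of at least 5 CPM at either time, the per-series changes correlated weakly between series that share no library, with Pearson's r from −0.01 (the 2 Bmal1 KO series) to 0.25 (Bmal1 KO series 4 and Cry KO series 3). These r are across genes, which are not independent replicates.

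**Figure D1:**
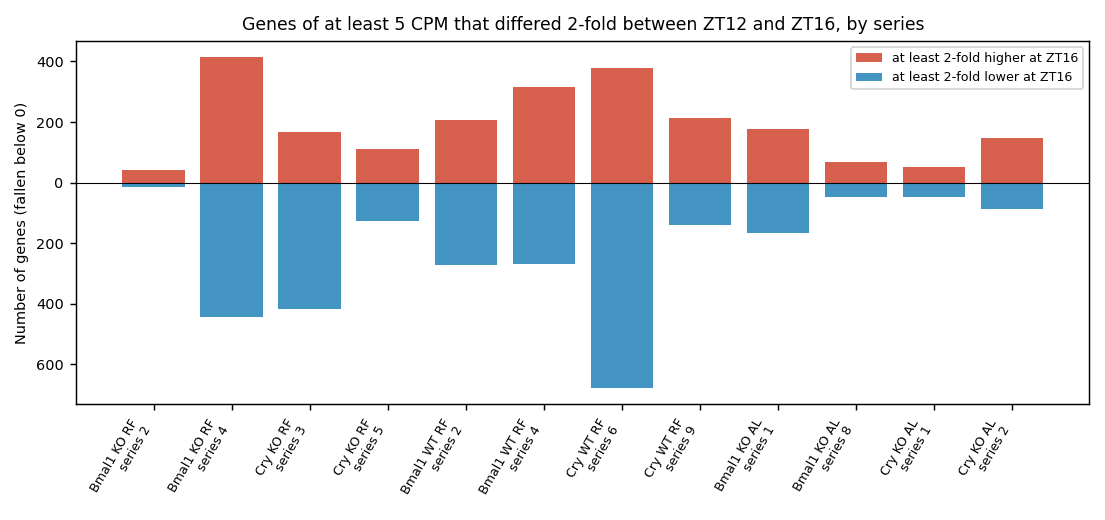
Number of genes (y axis) at least 2-fold higher (red, above 0) or lower (blue, below 0) at ZT16 than at ZT12 in each replicate series (x axis), among genes with a mean of at least 5 CPM in the pair of libraries. Bmal1 KO RF series 2 had 42 higher and 16 lower and Bmal1 KO RF series 4 had 414 and 443; night-fed WT and ad libitum KO series are shown beside them.

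The gluconeogenic enzyme gene Pck1 and 2 factors that drive it, Foxo1 and Ppargc1a, were lower at ZT16. All 16 genes of the list of FOXO1 targets and insulin-repressed genes had a negative fitted change, with a median of −0.79 against 0.01 over all genes, and 3 of the 16 were called, all lower, beside the 0.938% of all genes that were called lower. The list median was −0.02 in Bmal1 KO series 2, −1.67 in series 4, −1.02 in Cry KO series 3 and −0.27 in Cry KO series 5. Pck1, which encodes the enzyme that commits carbon to glucose production (ENSMUSG00000027513, chromosome 2, 173153048 to 173159273, mm10), stood at 1522, 6543, 2781 and 2901 CPM at ZT12 and at 1763, 791, 718 and 600.4 CPM at ZT16. The 3 series that fell ended at a quite similar level, while Bmal1 KO series 2 began lowest and did not fall, so the times overlapped. The fitted change was −1.75 ± 0.37 (SE, n = 4 per time, adjusted p = 0.0129). Ppargc1a, the gene of the coactivator PGC-1α (ENSMUSG00000029167, chromosome 5, 51454250 to 51567726), was at 15.9, 72.4, 15.4 and 8.82 CPM before and at 12.3, 10.6, 7.73 and 7.20 CPM after. It was lower in all 4 series (−1.16 ± 0.29, adjusted p = 0.0331), by most in Bmal1 KO series 4, whose fasted level was far above the rest. Foxo1 itself went from 40.2, 118, 55.5 and 49.1 CPM to 38.9, 35.3, 27.2 and 40.8 CPM (−0.80 ± 0.17, adjusted p = 0.0129), with a small difference in Bmal1 KO series 2 and Cry KO series 5.

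Igfbp1, an insulin-repressed gene whose product binds insulin-like growth factors, had a larger change than these but did not pass the test. Its levels were 142, 1281, 52.9 and 16.7 CPM at ZT12 and 188, 19.0, 9.21 and 3.43 CPM at ZT16 (−2.15 ± 0.94, adjusted p = 0.216). It dropped in 3 series and was higher at ZT16 in Bmal1 KO series 2, and its starting levels spanned from 16.7 to 1281 CPM. In the list of gluconeogenesis and cAMP-responsive genes, 2 of 16 were called lower, Pck1 and Ppargc1a again, beside 0.938% of all genes. The median of this list was −0.53.

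The cAMP response element, to which CREB binds, has the letters TGACGTCA, and its half-site TGACG. Both strands of the promoter windows of RefSeq (GRCm38.p6, 250 bases before to 50 after each start site) were searched for these and for TTACGTCA, a variant that shares the half-site on the other strand. The stretches below show the motif, in capitals, in 4 of the genes called lower; they were chosen after the search.
Pck1, chr2:173152969-173152998, + strand: aggcctgccccTTACGTCAgaggcgagcct
Dusp1, chr17:26508597-26508626, − strand: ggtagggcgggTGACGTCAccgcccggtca
Ppargc1a, chr5:51567757-51567786, − strand: ggtgccctcccaCGTCActgagctccagtg
Il6ra, chr3:89913415-89913444, − strand: tccttatctcagCGTCAaaacctggggagg

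The motif began 93 bases upstream of the start site in Pck1, 143 in Dusp1, 49 in Ppargc1a and 236 in Il6ra. TGACG was present in 20.8% of all 32851 windows, TGACGTCA in 1.79% and TTACGTCA in 0.499%. Among genes with a window, TGACG was held by 52 of 116 genes called lower (44.8%), 25 of 59 genes called higher (42.4%) and 33.7% of the 11184 genes tested. By gene, TGACGTCA was held by 7 of 116 called lower (6.03%), 2 of 59 called higher (3.39%) and 3.37% of those tested. For TTACGTCA these were 2 (1.72%), 1 (1.69%) and 0.921%. Shares by gene count a motif in any window of the gene, so they are not on the same scale as shares of windows. A match is a description of the letters in the window and was not tested as a binding site.

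Lpin1, which encodes a phosphatidate phosphatase and coactivator that is raised by fasting (ENSMUSG00000020593, chromosome 12, 16535669 to 16610966), was at 78.1, 2011, 149 and 60.6 CPM at ZT12 and at 104, 104, 24.4 and 37.1 CPM at ZT16. The 2011 CPM of Bmal1 KO series 4 at ZT12 was far above the other fasted libraries, and in Bmal1 KO series 2 the level did not fall. The fitted change was −2.22 ± 0.53 (adjusted p = 0.0243). Its paralogue Lpin2 behaved the same way, with 258, 659, 394 and 209 CPM before and 344, 123, 88.7 and 119.5 CPM after (−1.22 ± 0.31, adjusted p = 0.0374). Lpin2 falls outside the rule for named genes and was chosen after its values were seen, as were Pnpla2, Retreg1, Bnip3l, Ssr2, Sec61g, Elovl1, Actb, Actg1, Mrps27, Tns1, Kdm2b and Wrnip1 below. Pnpla2, the gene of adipose triglyceride lipase, changed by −0.83 ± 0.20 (adjusted p = 0.0226), from 57.3, 162, 81.5 and 70.8 CPM to 62.6, 39.0, 53.1 and 42.5 CPM.

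Of 14 glucocorticoid-responsive genes, 2 were called, both lower, beside the 0.938% of all genes called lower. All 14 had a negative fitted change (median −0.83), while 8200 of all 15772 genes had a positive one. Per series the list medians were 0.08, −2.19, −0.88 and −0.53. The transcription factor gene Zbtb16 was at 20.4, 119.8, 21.9 and 36.6 CPM at ZT12 and 21.4, 21.7, 2.73 and 3.46 CPM at ZT16 (−2.33 ± 0.51, adjusted p = 0.0148), so it barely moved in Bmal1 KO series 2 and dropped steeply in both Cry KO series. Dusp1, which encodes a phosphatase of MAP kinases and is also induced by cAMP, went from 31.9, 49.4, 56.9 and 18.8 CPM to 22.1, 8.17, 22.2 and 17.7 CPM (−1.25 ± 0.34, adjusted p = 0.0474). Fkbp5, the receptor's co-chaperone, and Ddit4, an inhibitor of mTORC1, did not pass the test. Their changes were −1.52 ± 0.47 (adjusted p = 0.0804) and −1.52 ± 0.47 (adjusted p = 0.081). Fkbp5 stood at 18.0, 294, 93.1 and 47.0 CPM in the fasted livers and at 29.6, 17.0, 35.6 and 60.3 CPM later. Its levels dropped in Bmal1 KO series 4 and Cry KO series 3 and were higher at ZT16 in the other 2 series.

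Il6ra, the receptor subunit through which hepatocytes sense interleukin-6 (ENSMUSG00000027947, chromosome 3, 89864059 to 89913196), fell in all 4 series. It had 68.2, 186, 99.9 and 96.5 CPM at ZT12 and 48.9, 20.9, 18.7 and 37.2 CPM at ZT16, without overlap. The change of −1.79 ± 0.31 had an adjusted p of 0.00489. It was −1.69 ± 0.44 in Bmal1 KO and −1.88 ± 0.43 in Cry KO.

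Of 15 autophagy genes 2 were called, both lower, beside the 0.938% of all genes called lower, and the list had a median of −0.21. Ulk1, the kinase that starts autophagosome formation, was at 65.3, 121, 67.0 and 64.9 CPM and then at 65.9, 61.2, 30.8 and 40.6 CPM (−0.68 ± 0.15, adjusted p = 0.0183). Gabarapl1, a protein of the autophagosome membrane, was at 275, 290.2, 154 and 163 CPM and then at 251, 108, 92.5 and 109 CPM (−0.69 ± 0.18, adjusted p = 0.0421). In both genes the level in Bmal1 KO series 2 hardly differed between the times. Map1lc3b, its relative LC3B, missed the threshold (−0.48 ± 0.13, adjusted p = 0.0522). Outside the list, the mitophagy receptor gene Bnip3l was lower in all 4 series, from 84.4, 97.7, 85.2 and 85.2 CPM to 77.5, 63.2, 55.8 and 58.2 CPM (−0.48 ± 0.08, adjusted p = 0.00489). Retreg1, a receptor for autophagy of the endoplasmic reticulum, fell by 1.37 ± 0.31 on the log2 scale (adjusted p = 0.0178), but its levels of 74.0, 581, 55.9 and 47.3 CPM at ZT12 and 52.8, 51.6, 29.3 and 53.6 CPM at ZT16 show that series 4 of Bmal1 KO made most of the difference. Trp53inp1, which links p53 to autophagy, was at 92.4, 339, 96.5 and 55.2 CPM before and 84.5, 80.0, 18.4 and 35.3 CPM after (−1.37 ± 0.31, adjusted p = 0.0187).

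Slc7a2, a transporter of arginine and other cationic amino acids, was lower in every series, with 649.9, 1696, 688 and 784 CPM at ZT12 and 376, 636, 432 and 317 CPM at ZT16 (−1.07 ± 0.28, adjusted p = 0.0373). The levels of the times did not overlap. Sesn2, a leucine sensor that restrains mTORC1, went from 9.62, 14.6, 10.9 and 8.59 CPM to 7.30, 3.81, 5.93 and 6.09 CPM (−0.91 ± 0.22, adjusted p = 0.0244), again without overlap. It was the 1 call among 19 genes of the amino acid response, whose median change was 0.19.

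The other genes with the lowest fold changes that moved the same way in all 4 series were Tmc7, Sftpa1, Atoh8, Tmtc2, Syde2, Cpeb2 and N4bp2l1. Cpeb2, which encodes an RNA-binding regulator of translation, was at 84.1, 136, 67.0 and 43.0 CPM at ZT12 and 72.2, 34.1, 19.8 and 29.9 CPM at ZT16 (−1.08 ± 0.22, adjusted p = 0.0097). N4bp2l1 went from 69.4, 90.3, 44.6 and 32.6 CPM to 45.4, 21.3, 21.1 and 22.4 CPM (−1.06 ± 0.20, adjusted p = 0.00788), and the 4 series reached nearly the same level except Bmal1 KO series 2. Atoh8, a basic helix-loop-helix factor, started at a like level in all series, 15.8, 18.9, 20.9 and 17.9 CPM, and ended at 12.7, 3.52, 8.12 and 6.47 CPM (−1.32 ± 0.34). Tmtc2 (−1.10 ± 0.28), Syde2 (−1.09 ± 0.25) and Sftpa1, a surfactant protein gene (−1.64 ± 0.38), had adjusted p of 0.0364, 0.0204 and 0.0204. Tmc7 (−2.15 ± 0.53, adjusted p = 0.0313) had only 0.266, 7.34, 7.76 and 8.59 CPM at ZT12 and 0.151, 0.342, 3.98 and 4.98 CPM at ZT16. The steepest fall lay in Bmal1 KO series 4. Ppp1r3g, a glycogen-targeting subunit of protein phosphatase 1, was the 1 call, lower, among 17 genes of glycogen and glycolysis (adjusted p = 0.0376). It was scarce, with 8, 268, 27 and 4 counts at ZT12 and 8, 1, 7 and 3 counts at ZT16, so no fold is given.

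**Figure D2:**
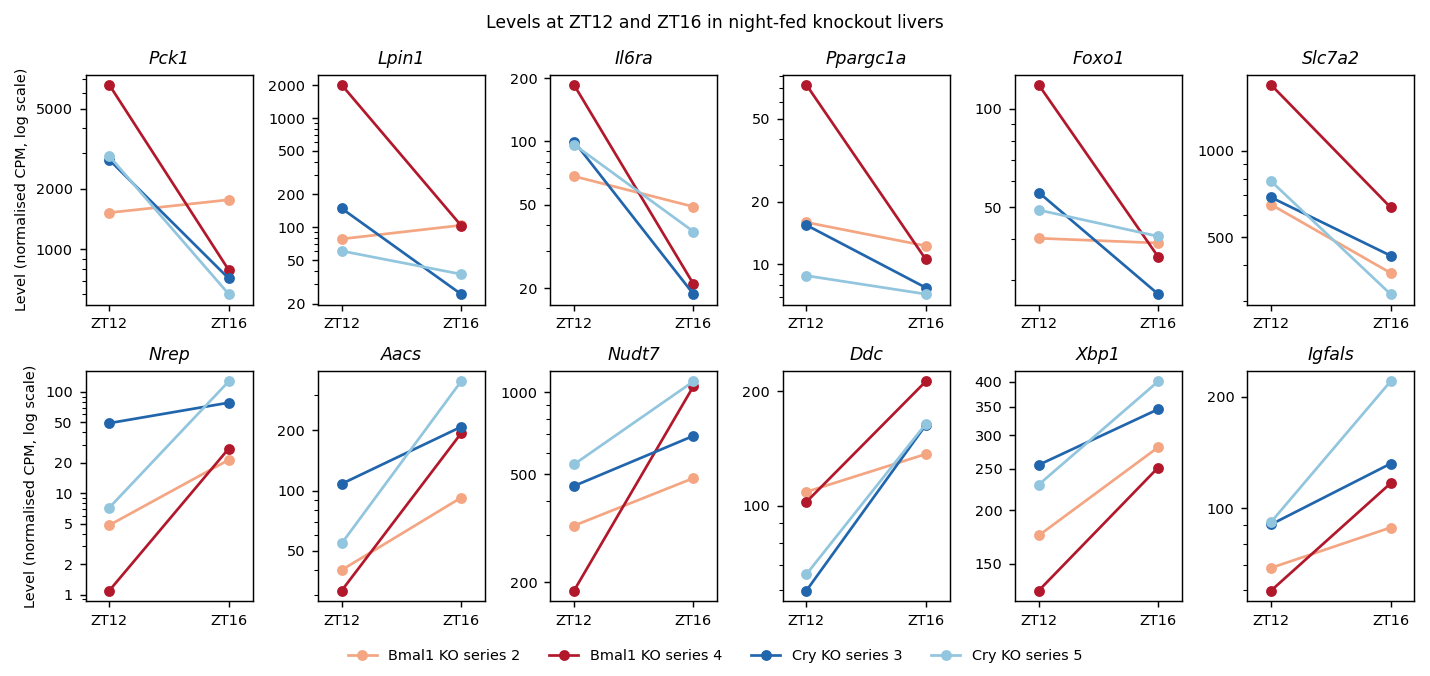
Level in normalised CPM (y axis, log scale) of 6 genes called lower (top) and 6 called higher (bottom) at ZT12 and ZT16 (x axis); each line joins the 2 libraries of 1 replicate series, Bmal1 KO in reds and Cry KO in blues. Pck1 and Lpin1 fell in 3 series and not in Bmal1 KO series 2, while Il6ra, Slc7a2 and all 6 genes in the bottom row moved the same way in all 4 series.

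Nrep, which encodes the neuronal regeneration related protein and was the highest of the genes called higher by the rule for named genes, went from 4.86, 1.10, 49.3 and 7.24 CPM at ZT12 to 21.4, 27.6, 78.4 and 127 CPM at ZT16 (2.68 ± 0.49, adjusted p = 0.00706). The fold was steep where the fasted level was low and small in Cry KO series 3, which began high, so the times overlapped. Of 47 called genes that were followed one by one, Nrep was the 1 gene still called without Cry KO series 3. None of the 47 was called without Bmal1 KO series 4 or in the fits of 8 or of 24 libraries, and 37 were called without the libraries that stand apart.

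Aacs, acetoacetyl-CoA synthetase, which returns ketone bodies to lipid synthesis (ENSMUSG00000029482, chromosome 5, 125475814 to 125517410), had 40.1, 31.7, 108 and 54.5 CPM in the fast and 92.2, 193, 208 and 351 CPM at ZT16 (1.84 ± 0.48, adjusted p = 0.0394). It was higher at ZT16 in each series, although the times overlapped. Nudt7, a peroxisomal hydrolase of coenzyme A, was abundant and rose by 1.26 ± 0.28 (adjusted p = 0.0183), from 323, 187, 452 and 543 CPM to 483, 1052, 691 and 1096 CPM. Acsl4, which activates polyunsaturated fatty acids, changed by 0.96 ± 0.21 (adjusted p = 0.0147), and its rise in Cry KO series 3 and Bmal1 KO series 2 was slight: 85.0, 73.7, 107 and 88.6 CPM before and 104, 300.2, 120.2 and 190.5 CPM after. Elovl1, an elongase of very long fatty acids, rose by 0.78 ± 0.17 (adjusted p = 0.0129). Cyp2u1, a cytochrome P450 of fatty acid hydroxylation, lay just inside the threshold (1.13 ± 0.31, adjusted p = 0.0499).

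Ddc, aromatic amino acid decarboxylase (ENSMUSG00000020182, chromosome 11, 11814101 to 11898144), had the most even rise of these, from 109, 102, 59.8 and 66.0 CPM to 137, 213, 163 and 164 CPM, without overlap (1.07 ± 0.24, adjusted p = 0.0196).  Grb10, an adaptor that restrains the insulin receptor, was at 3.23, 2.87, 5.68 and 4.30 CPM and then at 6.59, 17.9, 8.78 and 8.06 CPM (1.39 ± 0.36, adjusted p = 0.0376). Igfals, which encodes the acid-labile subunit that carries insulin-like growth factors in blood, went from 69.0, 59.9, 90.4 and 91.8 CPM to 88.6, 117, 132 and 220.2 CPM (0.81 ± 0.18, adjusted p = 0.017), and it was the 1 gene called among 19 hepatokines. The cytoskeletal genes Actb (0.77 ± 0.17, adjusted p = 0.0147) and Actg1 (1.01 ± 0.25, adjusted p = 0.0317) rose as well. Actb was at 274, 178, 356 and 477 CPM at ZT12 and 327, 524, 577 and 728 CPM at ZT16. The calcium sensor gene Ncald (1.10 ± 0.24, adjusted p = 0.0164), Pstpip2 (0.97 ± 0.25), Hpf1, a partner of PARP1 (0.86 ± 0.16), and the methyltransferase gene Eef1akmt1 (0.85 ± 0.20) were also called higher; the last 3 had adjusted p of 0.0373, 0.00706 and 0.022. Ncald had 13.6, 8.68, 5.45 and 11.1 CPM and then 19.5, 23.5, 19.9 and 17.3 CPM, without overlap.

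Of 21 genes of the unfolded protein response 18 had a positive change, with a median of 0.47, and 1 was called, Xbp1. This factor, which drives the secretory apparatus, was at 175, 129.7, 256 and 229.7 CPM and then at 281, 252, 345 and 401 CPM (0.71 ± 0.19, adjusted p = 0.0376). The chaperone genes Calr (0.66 ± 0.20, adjusted p = 0.0743) and Sdf2l1 (1.30 ± 0.45, adjusted p = 0.117) missed the threshold. Outside the list, the translocon genes Ssr2 (0.55 ± 0.12, adjusted p = 0.0147) and Sec61g (0.53 ± 0.14, adjusted p = 0.0383) and the mitochondrial ribosome gene Mrps27 (0.64 ± 0.15, adjusted p = 0.0269) rose. In the heat shock list 16 of 17 changes were positive (median 0.39) and none was called; Hsp90aa1 had 0.95 ± 0.30 (adjusted p = 0.0846). None of 25 ribosome biogenesis genes (median 0.21), 8 polyamine genes (0.10) or 19 aminoacyl-tRNA synthetase genes (0.21) was called, and Odc1, the first enzyme of polyamine synthesis, came nearest with 0.83 ± 0.23 (adjusted p = 0.0547).

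All 25 genes of the cholesterol synthesis list had a positive fitted change, with a median of 0.65, and 1 was called. Per series the medians were 0.25, 2.09, 0.23 and −0.06, so the list lay far from 0 in Bmal1 KO series 4 and near it elsewhere. The called gene was Stard4, a carrier of sterols within the cell, with 117, 48.6, 181 and 145 CPM at ZT12 and 162, 174, 146 and 259 CPM at ZT16 (0.70 ± 0.17, adjusted p = 0.0279). Cry KO series 3 went the other way for this gene. The enzyme genes Lss and Mvd did not pass the test, with 0.98 ± 0.30 and 1.21 ± 0.38 and adjusted p of 0.0765 and 0.0846. Lss shows the pattern: 82.6, 43.1, 74.6 and 78.7 CPM in the fast and 117, 249, 105 and 103 CPM later.

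No gene of the lipogenesis list was called higher. Of its 25 genes 18 had a positive change (median 0.40), and the single call was Lpin1, which fell. Srebf1, the insulin-responsive driver of fat synthesis, was at 165, 30.5, 306 and 274 CPM and then at 79.2, 279, 444 and 513 CPM (0.81 ± 0.38, adjusted p = 0.254). It went up in 3 series and was lower at ZT16 in Bmal1 KO series 2. Its change was called without that series (1.94) and was −0.18 without Bmal1 KO series 4. Acly, the enzyme that makes cytosolic acetyl-CoA, had 0.96 ± 0.36 (adjusted p = 0.153).

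**Figure D3:**
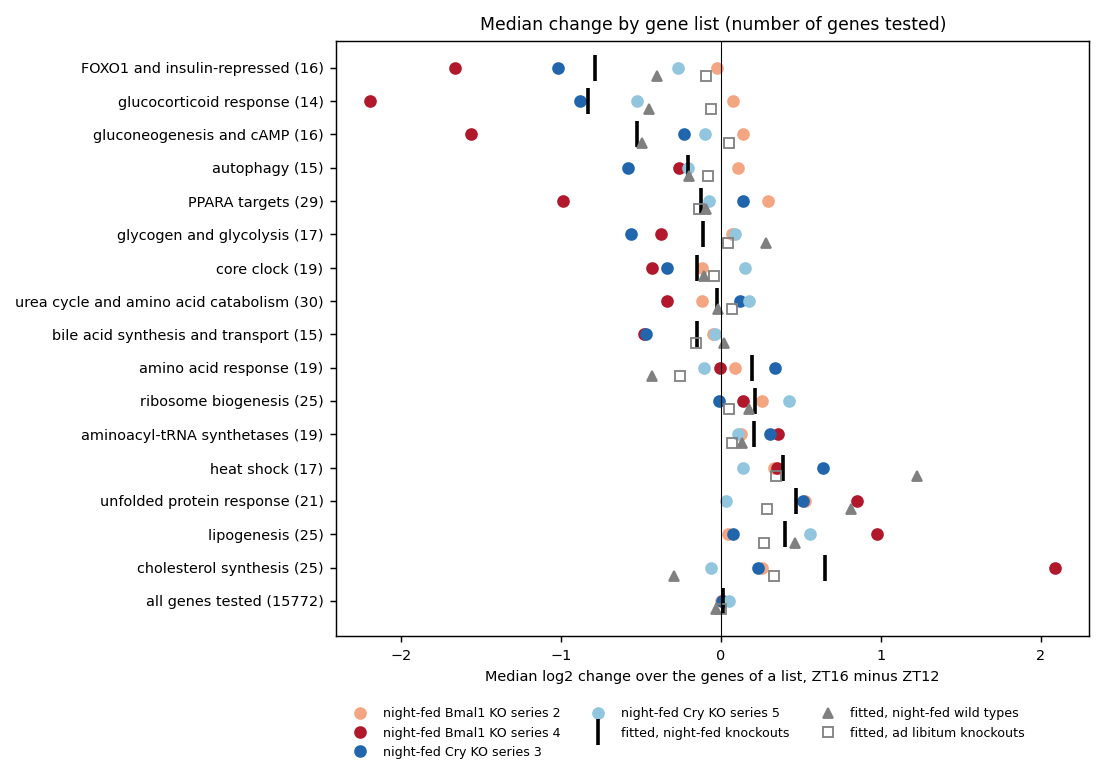
Median log2 change from ZT12 to ZT16 (x axis) over the genes of each list (y axis, number of genes tested in brackets). Circles are the 4 night-fed KO series, black bars the fitted change of night-fed knockouts, triangles that of night-fed WT and squares that of ad libitum KO; the cholesterol synthesis list lies at 2.09 in Bmal1 KO series 4 and between −0.06 and 0.25 in the other 3 series.

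Targets of PPARA, the receptor that turns on fat oxidation in the fast, had no call among 29 genes, and their median was −0.12. Cpt1a, the gate of fatty acids into mitochondria, was at 392, 655, 418 and 412 CPM and then at 498, 187, 218 and 242 CPM (−0.76 ± 0.22, adjusted p = 0.0657). Angptl4, a lipase inhibitor, was at 76.9, 262, 55.5 and 69.9 CPM and then at 164, 4.99, 10.4 and 29.3 CPM (−1.24 ± 0.61, adjusted p = 0.284). In both genes 3 series dropped and Bmal1 KO series 2 rose. No gene was called among 30 genes of the urea cycle and amino acid catabolism (median −0.03), 15 of bile acid synthesis and transport (−0.15), 16 acute phase genes (−0.12), 13 interferon-response genes (0.48) or 15 cell cycle genes (0.68).

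The core clock list, 19 genes, had no call either, with a median of −0.15. Dbp, an output factor of the clock, was at 2.50, 2.13, 50.6 and 59.9 CPM at ZT12 and 3.33, 2.35, 64.3 and 55.9 CPM at ZT16 (0.21 ± 0.31, adjusted p = 0.797). The lines lay at different levels, with little difference between the times in either. Per1, a clock gene that cAMP and glucocorticoids also induce, was at 18.4, 89.7, 114 and 95.7 CPM and then at 31.6, 19.5, 52.5 and 50.7 CPM (−0.89 ± 0.38, adjusted p = 0.204). Cry1 changed by −0.33 ± 0.18 and Cry2 by −0.16 ± 0.13, with adjusted p of 0.337 and 0.557.

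Taken line by line, with 2 libraries per time, 5 genes (0.0317%) were called in Bmal1 KO and 0 in Cry KO, so no gene was called in both. At an unadjusted p under 0.05 there were 1794 genes in Bmal1 KO and 1997 in Cry KO, and DESeq2 called 90 and 91. Of the 5 genes 2 (0.0127%) were higher and 3 (0.019%) lower. The 5, named after their values were seen apart from Cyth2, were Prok1 (3.47), Cyth2 (−0.87), Zfp872 (3.82), Klhl3 (−1.33) and Retreg1 (−2.34), as log2 changes. Zfp872 and Prok1 were scarce. Over the night-fed knockouts of both lines, mean Zfp872 was 0.39 CPM at ZT12 and 1.63 CPM at ZT16. Mean Prok1 was 1.59 and 4.81 CPM. The difference of the response between the lines was tested directly and called 0 genes with edgeR, with 992 at an unadjusted p under 0.05, and 0 with DESeq2. With 1 series of a line left out, so that the other is assumed to vary like the other groups, Bmal1 KO had 1075 calls without series 2 and 0 without series 4, and Cry KO had 699 without series 5 and 2 without series 3. The difference then had 173 calls without Bmal1 KO series 2, 12 without Cry KO series 5, 1 without Cry KO series 3 and 0 without Bmal1 KO series 4. The smallest p in this difference belonged to Dhx9, an RNA helicase gene, with 0.64 ± 0.18 in Bmal1 KO and −0.46 ± 0.19 in Cry KO (adjusted p of the difference 0.477). It was followed by Ahnak, Bbip1, Zfp954 and Cyth2, each with the same adjusted p. Zbtb16 fell by 1.44 ± 0.67 in Bmal1 KO and by 3.22 ± 0.77 in Cry KO, a difference that was not called (adjusted p = 0.791).

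In night-fed WT livers the same interval changed 3096 genes, 19.6% of those tested, 1446 higher (9.17%) and 1650 lower (10.5%). The count was 1812 without the libraries that stand apart and 1141, 1522, 1681 and 3224 without Cry WT series 6, Bmal1 WT series 4, Bmal1 WT series 2 and Cry WT series 9. Markers of white blood cells moved with it. In WT, 4 of 5 neutrophil markers tested (median −4.29) and 4 of 10 B and T cell markers (median −1.22) were called lower. None of 10 Kupffer cell markers (median −0.64) or 6 erythroid markers (median 0.14) was called. The erythroid medians were 1.49 and 0.65 in Bmal1 WT series 2 and 4, and −3.06 and 2.01 in Cry WT series 6 and 9. Of 7 cholangiocyte markers 2 were called higher and 1 lower, and of 8 endothelial markers 1 was called higher. The neutrophil sum was 129 CPM at ZT12 and 2.92 CPM at ZT16 in Cry WT series 6, and between 1.65 and 13.0 CPM in the other WT libraries. The Kupffer sum went from 1148 to 474 CPM in Cry WT series 6 and from 971 to 353 CPM in Bmal1 WT series 2, and lay between 210.5 and 353 CPM in the other 2 series. The B and T cell sum ran from 7.52 to 46.6 CPM at ZT12 and from 5.73 to 15.3 CPM at ZT16. Their part in the WT response, and in its difference from the knockouts, was not tested. The groups share no library. Of the 148 genes called lower in the knockouts, 78 (52.7%) were also called lower in WT, where they made up 4.73% of the 1650; of the 78 called higher, 36 (46.2%) were also called higher in WT, which is 2.49% of 1446. Tns1, Kdm2b and Wrnip1 were called lower in the knockouts and higher in WT, and no gene was called higher in the knockouts and lower in WT. Pck1 had −1.92 ± 0.37 in WT, from 4277, 4523, 3663 and 3655 CPM to 1106, 755, 659 and 1791 CPM (Bmal1 WT series 2 and 4, Cry WT series 6 and 9). Changes close to those of the knockouts were also measured in WT for Ppargc1a (−1.29 ± 0.28), Trp53inp1 (−1.24 ± 0.31), Sesn2 (−1.10 ± 0.21) and Igfals (0.72 ± 0.18). Slc7a2 fell by 2.01 ± 0.28 and Ddc rose by 2.02 ± 0.25 there, and neither difference from the knockouts was called (adjusted p = 0.168 and 0.116).

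The difference between the KO and the WT response, tested as an interaction, was called for 346 genes (2.19%), 144 (0.913%) with a higher and 202 (1.28%) with a lower change in the knockouts. Most of these genes were called in WT: 182 rose there with a median log2 change of 0.89, and their median in the knockouts was −0.11, while 126 fell with a median of −0.82 and had a median of 0.19 in the knockouts. Of the 182 genes 3 were called in the knockouts, and of the 126 none was. Both sets were picked by a called WT change and a called difference on these same values. Their medians and their few calls in the knockouts follow in part from that choice. Arntl led the list, from 1.47, 1.01, 1.57 and 1.43 CPM at ZT12 to 18.1, 13.0, 14.7 and 14.6 CPM at ZT16 in WT (3.50 ± 0.26) against 0.20 ± 0.22 in the knockouts (adjusted p of the difference 2.76e-08). The manganese exporter gene Slc30a10 rose in WT from 14.85, 11.96, 11.58 and 15.04 CPM to 74.5, 73.1, 57.0 and 75.2 CPM (2.39 ± 0.18). In the knockouts it stood at 85.3, 98.8, 77.2 and 84.8 CPM and then at 96.5, 83.6, 84.5 and 107 CPM, so both times lay above the WT levels of ZT16, and the difference was called (adjusted p = 4.08e-08). The ubiquitin ligase gene Dtx4 and the choline kinase gene Chka had WT changes of 2.26 ± 0.20 and 2.36 ± 0.19 and KO changes of 0.04 ± 0.18 and 0.34 ± 0.18. Dbp fell in WT by 2.96 ± 0.30, and its difference from the knockouts had an adjusted p of 6.5e-06. Core clock genes with a called difference included Arntl, Clock, Cry1, Nr1d1, Dbp and Hlf. The count of 346 was 80 without the series as blocks, 762 with DESeq2, 209 without the libraries that stand apart and between 82 (without Bmal1 WT series 4) and 794 (without Cry KO series 5) when 1 of the 8 series was left out.

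In the cholesterol synthesis list the fitted median was −0.30 in WT and 0.65 in the knockouts, and 3 of 25 differences were called. The genes named here for their called difference from WT, other than those in the rule for named genes, were chosen after their values were seen. They were Stard4, the kinase Mvk (−1.25 in WT, 0.63 in the knockouts) and the demethylating enzyme Msmo1 (−1.45 and 0.65). In the heat shock list all 17 genes had a positive change in WT, with a median of 1.23. Of these 14 were called higher there, beside 9.17% of all genes. The difference was called for Hsph1 (2.38 in WT, 0.56 in the knockouts) and Hspb1 (2.49 and 0.36). Hsp90aa1 had 2.38 ± 0.32 in WT (adjusted p of the difference 0.0591). In the unfolded protein response list 16 of 21 genes were called higher in WT (median 0.81). In the lipogenesis list 7 of 25 were called higher and 1 lower there (median 0.46). No difference from the knockouts was called in either list. Ppp1r3b, another glycogen-targeting subunit, rose in WT (1.69) and not in the knockouts (0.00, adjusted p of the difference 0.0144). Tsc22d3, the glucocorticoid-induced leucine zipper gene, had 0.71 in WT and −0.73 in the knockouts (adjusted p of the difference 0.0152). All 16 acute phase genes fell in WT (median −1.66); Cry WT series 6 at ZT12 held 21930 CPM of Saa1, an acute phase gene, and its part in that fall was not tested.

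Some genes were called in the knockouts with a called difference from WT. Of the 78 genes called higher in the knockouts, 10 had a called difference from WT, and of the 148 called lower, 6. Over all genes tested this share was 2.19%. The KO change that called these genes is also part of the difference, so both counts follow in part from the call. Nrep had 0.15 ± 0.43 in WT, where it was already at 43.1, 59.7, 38.2 and 134 CPM at ZT12 (adjusted p of the difference 0.0255). The difference was also called for Ncald (−0.48 in WT, adjusted p = 0.00848), Hpf1 (0.01, 0.021) and Stard4 (−0.27, 0.021). Tns1, a focal adhesion protein gene, changed by −0.64 ± 0.17 in the knockouts and 0.57 ± 0.17 in WT (adjusted p of the difference 0.00298). The fall of Il6ra was −1.79 in the knockouts and −0.53 in WT, with an adjusted p of 0.0871 for the difference.

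**Figure D4:**
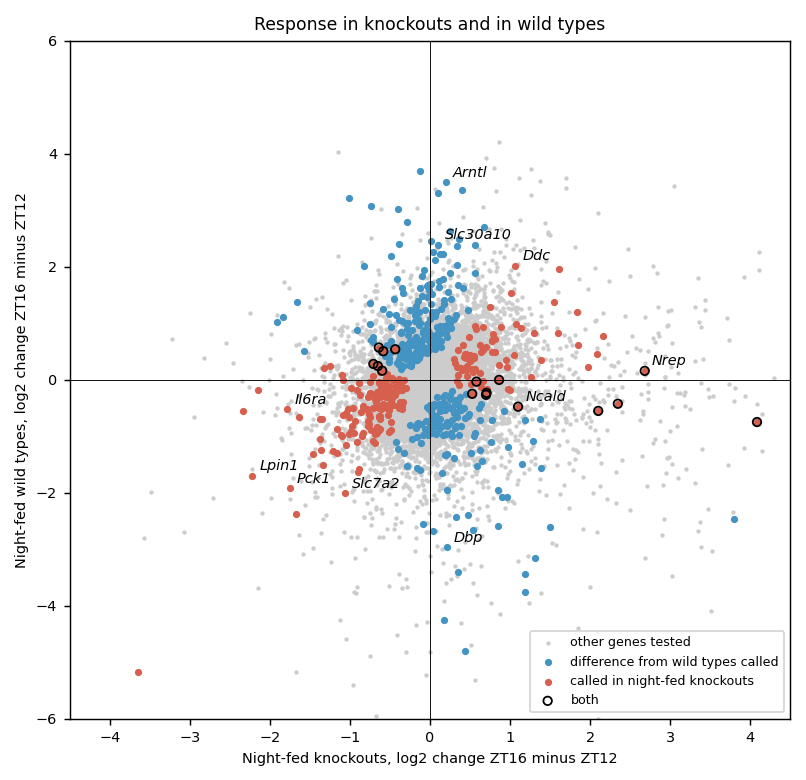
Log2 change from ZT12 to ZT16 in night-fed knockouts (x axis) and night-fed WT (y axis), 1 point per gene tested; 15 genes lie outside the axes. Red points were called in the knockouts, blue points had a called difference from WT, and ringed points were both; Arntl, Slc30a10 and Dbp lie near 0 on the x axis, and Pck1, Lpin1, Slc7a2 and Ddc moved the same way in both.

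Knockouts that could eat at any time gave 0 calls over the same 4 h, with 878 genes at an unadjusted p under 0.05 and 0 calls with DESeq2. The genes called in the night-fed knockouts had median changes there of −0.12 (the 148 lower) and 0.18 (the 78 higher). Positive fitted changes there covered 25 of 25 cholesterol synthesis, 16 of 17 heat shock and 18 of 21 unfolded protein response genes. These are the same counts as in night-fed knockouts, with list medians of 0.33, 0.34 and 0.285. The FOXO1 and insulin-repressed list had a median of −0.10 there, and the glucocorticoid list −0.07. Pck1 went from 1908, 1362, 1495 and 3062 CPM to 1089, 862, 762 and 2456 CPM in ad libitum knockouts (Bmal1 KO series 1 and 8, Cry KO series 1 and 2), a change of −0.68 ± 0.36. Lpin1 had −0.12 ± 0.49, Ppargc1a 0.24 ± 0.28 and Nrep 1.09 ± 0.45. The difference between night-fed and ad libitum knockouts was tested as an interaction and called for 0 genes, with edgeR (1039 at an unadjusted p under 0.05) and with DESeq2, so a response in one feeding group and not in the other was not established. It was called for 88 genes without Bmal1 KO series 2. For Pck1 this difference had an adjusted p of 0.751. The smallest p belonged to Zbtb2 (−0.72 ± 0.16 in night-fed and 0.26 ± 0.16 in ad libitum knockouts), Phtf2, Mcrip1, Sik3 and Ing5, each with an adjusted p of 0.67. Sik3, a salt-inducible kinase that restrains CREB coactivators, was itself called lower in night-fed knockouts (−0.51 ± 0.11, adjusted p = 0.0138).

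Over the 6 times of day, mean Pck1 was 1515, 2321, 3419, 3437, 968 and 1464 CPM from ZT0 to ZT20 in steps of 4 h (n = 4 per time), with its lowest mean at ZT16. Il6ra averaged 113 ± 50.8 CPM (SD, n = 4) at ZT12, 31.4 ± 14.2 CPM at ZT16 and 52.8 ± 31.8 CPM at ZT20. Aacs had its highest mean at ZT16, 211 ± 107 CPM, after 37.5 ± 12.3 CPM at ZT8 and before 113 ± 45.1 CPM at ZT20. Nrep rose to 63.6 ± 49.4 CPM at ZT16 from 14.1 CPM at ZT8 and 15.6 CPM at ZT12, and stood at 28.0 ± 8.79 CPM at ZT20. Ddc remained at 172 ± 60.6 CPM at ZT20, as high as at ZT16 (169 ± 31.6 CPM). The daytime peak of Pck1, Lpin1 and Slc7a2 did not fall at the same time in every series: Lpin1 was highest at ZT4 in both Cry KO series, at ZT8 in Bmal1 KO series 2 and at ZT12 in Bmal1 KO series 4. Both Cry KO libraries at ZT4 were shallow, with total counts of 1478963 in series 3 and 4541141 in series 5. Ctrb1 stood at 251.6 CPM in the latter, and at 42.75 CPM in Cry KO series 5 at ZT8. Bmal1 KO series 4 held 7533 CPM of Saa1 at ZT0 and 105 CPM of Isg15 at ZT20, and Bmal1 KO series 2 had 3181499 counts at ZT20. The part of these libraries in the means and peak times was not tested. No test was made across the 6 times.

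**Figure D5:**
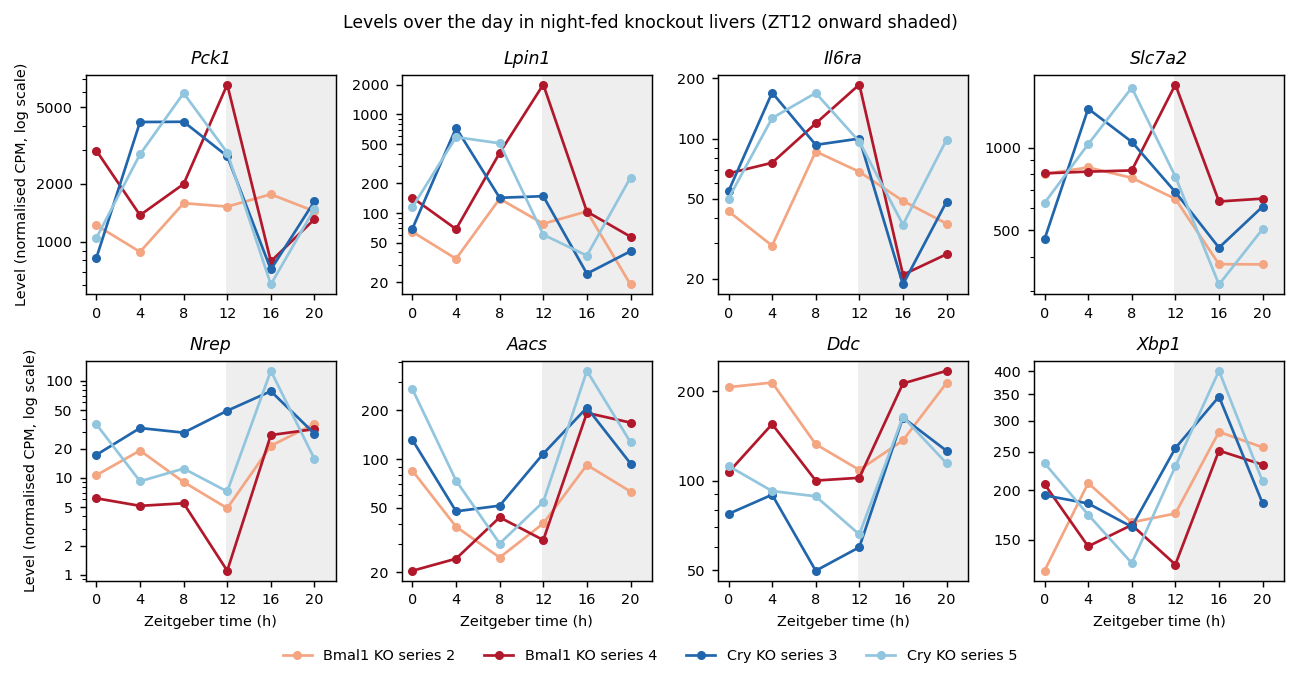
Level in normalised CPM (y axis, log scale) of 4 genes called lower and 4 called higher against zeitgeber time in hours (x axis) in night-fed knockouts, 1 line per replicate series, ZT12 onward shaded. Mean Pck1 was lowest at ZT16, with 968 CPM, and mean Aacs highest at ZT16, with 211 CPM.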

How the data were processed

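Polyadenylated liver RNA of 96 mouse libraries was sequenced with a stranded TruSeq mRNA kit, per the labels' protocols. The authors deposited a table of raw read counts per gene. STAR 2.4.0i aligned them to mm10, per the submitters' processing notes. How reads were counted, with which strand setting and annotation, is not given in the sources used here, so overlapping, antisense and near-identical genes remain uncertain. Of 55421 gene identifiers, 55154 matched a GENCODE M21 symbol, and the other 267 held 0.0449% of counts. Total counts per library ran from 1478963 to 35568856 (median 25422366), which limits low genes most. Libraries of a group and time differed by more than sampling noise, so none was merged.

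The low-count filter was filterByExpr of edgeR, with its minimum count at 10 and its minimum total at 15. It left 15772 of 35670 genes, with 99.94% of counts, and libraries were scaled by TMM. edgeR 4.0.16 in R 4.3.3 fitted all 96 libraries in 1 quasi-likelihood model with 16 replicate series as fixed blocks and time within each group (40 residual degrees of freedom). SEs are the log2 fold change divided by the square root of F. Per-series log2 changes used CPM plus 0.5. DESeq2 1.42.0, limma 3.58.1, other filters, other scaling, other blocks and left-out series were the alternatives; fits without a series kept the genes and the dispersion trend of the full fit. On simulated data, 25.4%, 80.6% and 97% of genes changed 1.5-, 2- and 4-fold were called in the night-fed knockout comparison. These were shares of 67, 67 and 66 genes of 15772, with 4 false calls among 15572 unchanged genes. The simulated counts followed the mean levels and the dispersion trend, without differences between series or a spread particular to each gene. The shares and the false calls therefore do not describe the real libraries, whose series differed widely.

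The libraries, lists and tests were chosen with earlier results of these data known. The rule for named genes took the 12 highest and 12 lowest fold changes among called genes with a mean of at least 5 CPM at the higher time and the same sign in all 4 series (unnamed gene models left out), the 4 smallest p of each list, the 5 smallest p of each difference of response, and a set of genes taken in any case that included Srebf1, Igfbp1, Pck1, Fgf21, Arntl, Cry1, Cry2 and Dbp. The text names a selection of these, and some genes are not reported here. The replicate numbers were taken as blocks because the comparison is defined by them; the correlation of deviations at ZT12 and ZT16 within a series was 0.158 in Bmal1 KO and 0.022 in Cry KO.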

Additional observations from a re-analysis of the deposited data

Results flagged for a closer look

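In 33 of 246 groups of 4 values examined, 1 library lay apart from the other 3, by a gap that took up nearly the whole range. For independent, normally spread values chance gives this in about 1 group of 20. CPM levels are skewed, and many of these genes were chosen for their changes in these same libraries. The count of 33 is therefore not a measured excess over chance. Of the 33, 17 were levels at ZT12, 11 were levels at ZT16 and 5 were changes, and 14 belonged to 1 library, Bmal1 KO series 4 at ZT12. This fasted library was above the other 3 for Ppargc1a (72.4 CPM), Lpin1 (2010 CPM), Trp53inp1 (339 CPM), Zbtb16 (120 CPM), Slc7a2 (1700 CPM), Ulk1 (121 CPM) and Bnip3l (97.7 CPM). It was also above them for Retreg1 (581 CPM), Igfbp1 (1280 CPM), Angptl4 (262 CPM), Cpt1a (655 CPM), Ddit4 (169 CPM), Map1lc3b (178 CPM) and Cyth2 (23 CPM).

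At ZT16, Bmal1 KO series 2 was above the other series for Pck1 (1760 CPM), Lpin2 (344 CPM), Gabarapl1 (251 CPM), N4bp2l1 (45.4 CPM), Igfbp1 (188 CPM) and Angptl4 (164 CPM), all genes whose level was lower at that time in the other 3 series. At ZT12 the same series stood apart for Tmc7 (0.266 CPM, below) and Pstpip2 (13.4 CPM). Its log2 change stood apart for Bnip3l (−0.12) and Hnf4a (0.16), the gene of a hepatocyte factor. Bmal1 KO series 4 at ZT16 was above the others for Lss (249 CPM), Mvd (56.2 CPM) and Arntl (21.2 CPM), and its log2 changes stood apart for Lss (2.52), Mvd (2.63) and Syde2 (−2.36). Cry KO series 3 stood apart for Nrep at ZT12 (49.3 CPM) and at ZT16 for Retreg1 (29.3 CPM) and Fbl, a gene of ribosome biogenesis (32.3 CPM).

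The response of night-fed knockouts differed from that of night-fed WT, by the interaction term in edgeR, for 12 of the genes followed. As KO minus WT log2 change, the difference was −3.30 for Arntl, −2.29 for Slc30a10, −2.22 for Dtx4, −2.02 for Chka, −1.86 for Cry1 and −0.74 for Hlf. It was 3.17 for Dbp, 2.53 for Nrep, 1.58 for Ncald, 0.97 for Stard4, 0.93 for Mcrip1 and 0.87 for Hpf1. The adjusted p ran from 2.76e-08 for Arntl to 0.0344 for Hlf.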

How the results depend on the processing

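All 226 called genes kept their sign in every alternative that tested them. The alternatives reuse all or most of the libraries that called the genes, so the kept sign follows in part from the call. Of the genes named without a call, the change of Srebf1 ran from −0.18 to 1.94, Cry1 from −0.57 to 0.03, Cry2 from −0.34 to 0.10, Dtx4 from −0.12 to 0.20, Dhx9 from −0.22 to 0.40, Bbip1 from −0.10 to 0.24 and Slc30a10 and Zfp954 also passed 0. Of the genes called in WT, 3090 and 3089 of 3096 kept their sign without the libraries that stand apart and without Cry WT series 6, and 344 of the 346 differences did without Cry KO series 3. The count stayed within 1.5 times with no filter (317), a filter of 1 CPM (332), RLE scaling (260), limma-voom (245) and without the libraries that stand apart (272), with 170 of 226, 223 of 223 tested, 226, 194 and 143 of the called genes still called. It was 61 without the replicate block, 145 with the block as a random effect, 613 with DESeq2, 0 with the 8 libraries alone (3 residual degrees of freedom) and 0 with the 24 night-fed KO libraries alone (10). With 1 series left out it ran from 0 to 1273.

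Bmal1 KO alone had 171 calls without the filter, 1 without the replicate block, 0 with the 24 and with the 8 libraries alone, 44 with limma-voom, 90 with DESeq2 and 0 to 1075 with 1 series left out. Cry KO alone had 17 without the filter, 2 with the 8 libraries alone, 91 with DESeq2 and 2 to 699 with 1 series left out. The difference between the lines had 1 call with the 8 libraries alone and 0 to 173 with 1 series left out.

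Night-fed WT had 1897 calls without the replicate block, 1812 without the libraries that stand apart and 1141 to 3224 with 1 series left out. The KO and WT difference had 532 without the filter, 80 without the replicate block, 209 without the libraries that stand apart, 762 with DESeq2 and 82 to 794 with 1 series left out. Ad libitum KO had 6 calls without the filter and 0 to 1 with 1 series left out. Its difference from night-fed KO had 0 to 88. The cause of these shifts was not tested. Where 1 series of a line is left, it is assumed to vary like the other groups. The replicate numbers are only a label: the deviations of a series correlated at 0.158 between ZT12 and ZT16 in Bmal1 KO and at 0.022 in Cry KO. The low total counts of both Cry KO libraries at ZT12 limit what can be seen of low genes in that line.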
